A study of Caenorhabditis elegans with 9 samples.

Results

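The propionate shunt is a mitochondrial route that breaks down propionyl-CoA without vitamin B12. The 5 *Caenorhabditis elegans* genes described here, *acdh-1*, *ech-6*, *hach-1*, *hphd-1* and *alh-8*, encode its enzymes. They were chosen by name, and all 5 were found among the 20306 entries of the deposited CPM table. RNA came from whole animals at the fourth larval stage (L4) and was sequenced in 3 groups of 3 libraries. Animals of the tested genotype carried nhr-114(gk849), an allele of the gene for the HNF4-type nuclear hormone receptor NHR-114. One mutant group came from mothers given 8 µM B12, the other mutant group from mothers given vehicle, and the wild-type (WT) group from mothers given vehicle. The groups included no wild-type animals with maternal B12, so the B12 comparison applies to the mutant only.

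Propionyl-CoA arises when valine, isoleucine, methionine, threonine and odd-chain fatty acids are broken down. In the B12-dependent route it is carboxylated and then rearranged to succinyl-CoA by methylmalonyl-CoA mutase, for which B12 is the cofactor. When B12 is scarce and propionate builds up, *C. elegans* turns on the shunt, which oxidises propionyl-CoA to malonic semialdehyde and on to acetyl-CoA. In wild-type worms this response is known to need the receptors NHR-10 and NHR-68, and dietary B12 is known to lower *acdh-1* mRNA.

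All 5 shunt mRNAs were lower in mutants of vehicle-treated mothers than in WT animals, and all 5 were higher in mutants of B12-treated mothers than in mutants of vehicle-treated mothers. Maternal B12 did not bring them to the WT level, since all 5 were still lower in B12 mutants than in WT animals. In each gene the 3 WT libraries lay above the 3 B12 mutant libraries, which lay above the 3 vehicle mutant libraries. That order without overlap held for 5 of 5 shunt genes and for 1.07% of the 14795 genes tested. The order counted was the one the shunt genes showed, and these were chosen with earlier results of these data known. The share is therefore a description and not a test. The labels do not say that replicates came from separate cultures, so the p-values below measure the spread between these libraries, which may be technical. Because whole animals were used, fewer cells of a type and less RNA per cell cannot be told apart.

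Library totals ran from 14461993 to 16659895 estimated counts, and the smallest value of any shunt gene in any library was 2517 counts, for *hach-1* in a vehicle mutant. *nhr-114* had 3, 2 and 4 counts in B12 mutants and 3, 4 and 4 in vehicle mutants, against 6954, 8027 and 7436 in WT animals, so the libraries matched their genotype labels. Every marker matched for intestine, hypodermis, body-wall muscle, neurons, germline and sperm had reads in each group. Along the first principal component of log2 CPM, which held 58.9% of the variance, WT replicate 1 was the WT library nearest to the vehicle mutants.

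*acdh-1* encodes the acyl-CoA dehydrogenase that opens the shunt by turning propionyl-CoA into acrylyl-CoA. The gene (WBGene00016943) lies on the plus strand of chromosome I, 6497436 to 6499560 in WBcel235, with a longest product of 427 residues. Its level was 2364, 2183 and 2261 CPM (library-size-scaled counts, TMM-normalised) in B12 mutants, 926, 1072 and 942 CPM in vehicle mutants, and 4010, 4187 and 4633 CPM in WT animals. The 3 groups did not overlap, and the lowest WT library stood well above the highest B12 mutant library.

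*ech-6* encodes the enoyl-CoA hydratase of the next step, which adds water to acrylyl-CoA to give 3-hydroxypropionyl-CoA. It lies on the minus strand of chromosome III (WBGene00001155, 9751552 to 9752883), and its product has 288 residues. Its level was 871, 868 and 908 CPM in B12 mutants, 486, 525 and 494 CPM in vehicle mutants, and 1506, 1539 and 1582 CPM in WT animals. Libraries within a group differed little, with coefficients of variation of 2.52% in B12 mutants and 4.12% in vehicle mutants.

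*hach-1* encodes the hydrolase that frees 3-hydroxypropionate from coenzyme A. It lies on the plus strand of chromosome III (WBGene00017301, 5555450 to 5557318) and its longest product has 386 residues. Its level was 344, 355 and 355 CPM in B12 mutants, 172, 199 and 171 CPM in vehicle mutants, and 680, 666 and 837 CPM in WT animals. WT replicate 3 stood above the other WT libraries, and no WT library reached down to the mutants.

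*hphd-1* encodes the transhydrogenase that oxidises 3-hydroxypropionate to malonic semialdehyde. It lies on the minus strand of chromosome II (WBGene00012608, 12994354 to 12996571), and its longest product has 465 residues. Its level was 934, 908 and 842 CPM in B12 mutants, 480, 593 and 483 CPM in vehicle mutants, and 1200, 1333 and 1398 CPM in WT animals. It had the widest relative spread of the 5 genes among vehicle mutants, 12.4%, and the groups still did not overlap.

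*alh-8* encodes the semialdehyde dehydrogenase of the last step, which makes acetyl-CoA, and the enzyme is also used in valine breakdown. It lies on the plus strand of chromosome II (WBGene00000114, 11729055 to 11731198), and its longest product has 523 residues. Its level was 1255, 1197 and 1192 CPM in B12 mutants, 892, 1007 and 942 CPM in vehicle mutants, and 1604, 1652 and 1647 CPM in WT animals. Its groups stood closest together of the 5 genes and did not overlap either.

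**Figure D1:**
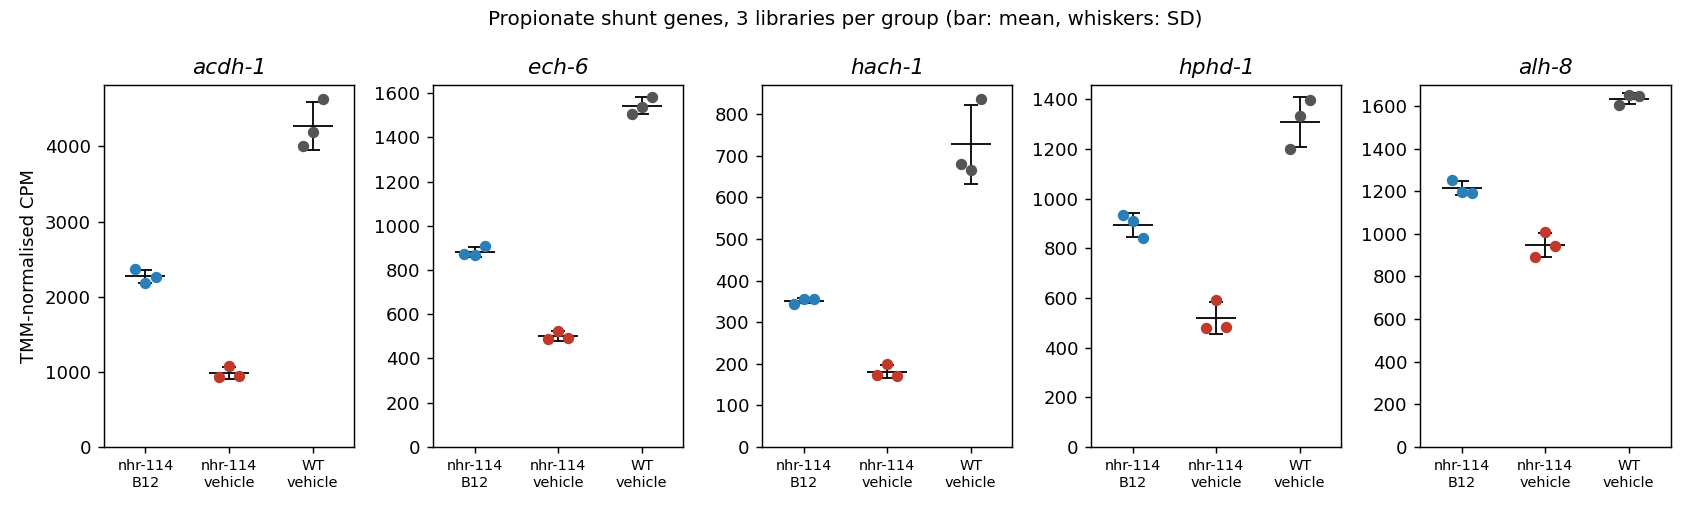
Level of each shunt gene in TMM-normalised CPM (vertical axes from 0, one scale per gene) in B12 mutants, vehicle mutants and WT animals; dots are libraries, horizontal bars group means and whiskers SD (n = 3). Each gene has its WT libraries highest and its vehicle mutant libraries lowest, from 4633 CPM at the top to 926 CPM at the bottom for acdh-1.

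The comparison of vehicle mutants with WT animals asked what the mutation changed without added B12. All 5 shunt genes were called lower (edgeR, Benjamini-Hochberg adjusted p under 0.05), where 18.3% of all tested genes were called lower. In all 5 the groups did not overlap, with the mutants lower, as for 24.3% of tested genes. *acdh-1* fell most, to 979.8 ± 80.0 CPM in vehicle mutants, against 4276 ± 321 CPM in WT animals (SD, n = 3 each), a log2 fold change of -2.13 ± 0.09 (SE; adjusted p = 1.67e-07). *hach-1* followed with -2.01 ± 0.11 (adjusted p = 6.64e-07), at 180.4 ± 16.01 CPM in vehicle mutants and 728 ± 95.1 CPM in WT animals. *ech-6* fell by 1.62 ± 0.07 and *hphd-1* by 1.34 ± 0.10 on the log2 scale. *alh-8* changed least, by -0.79 ± 0.07 (adjusted p = 2.81e-05), and had 946.8 ± 57.6 CPM in vehicle mutants and 1634 ± 26.2 CPM in WT animals. The median of the 5 genes was -1.62, beside 0.01 over all tested genes. By size of fall *acdh-1* was number 208 of the 14795 genes and *alh-8* number 2353.

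The comparison of B12 mutants with vehicle mutants asked what B12 given to the mother changed in mutant offspring. All 5 genes were called higher, where 22.6% of tested genes were called higher and 23.8% lower. In all 5 the groups did not overlap, with B12 mutants higher, as for 27.1% of tested genes. *acdh-1* again moved most, at 2269 ± 91.1 CPM in B12 mutants and 979.8 ± 80.0 CPM in vehicle mutants, a log2 fold change of 1.21 ± 0.09 (edgeR adjusted p = 8.99e-06). *hach-1* rose by 0.96 ± 0.10, *ech-6* by 0.81 ± 0.07 and *hphd-1* by 0.79 ± 0.10. *alh-8* had the smallest rise, 0.36 ± 0.07 (adjusted p = 0.00247), with 1215 ± 34.8 CPM in B12 mutants and 946.8 ± 57.6 CPM in vehicle mutants. These rises were inside the range of common changes: the 95th percentile of all tested genes was 2.01, and *acdh-1* was number 2032 from the largest rise.

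B12 mutants were compared with WT animals to see what remained of the mutant's difference. All 5 genes were called lower, where 6.13% of tested genes were called lower and 7.28% higher. In all 5 the groups did not overlap, with the mutants lower, as for 15.3% of tested genes. *hach-1* had the largest remaining difference, with 351.2 ± 5.999 CPM in B12 mutants and 728 ± 95.1 CPM in WT animals, a log2 fold change of -1.05 ± 0.10 (edgeR adjusted p = 1.31e-04). *acdh-1* was at -0.91 ± 0.09, *ech-6* at -0.81 ± 0.07, *hphd-1* at -0.55 ± 0.10 and *alh-8* at -0.43 ± 0.07 (adjusted p = 0.00371). As a share of the WT level, the fitted *acdh-1* level was 53.1% in B12 mutants and 22.9% in vehicle mutants. For *alh-8* the shares were 74.3% in B12 mutants and 57.9% in vehicle mutants. The vehicle mutants enter 2 of the comparisons, as do the B12 mutants and the WT animals, so the 3 sets of fold changes are not independent of each other.

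**Figure D2:**
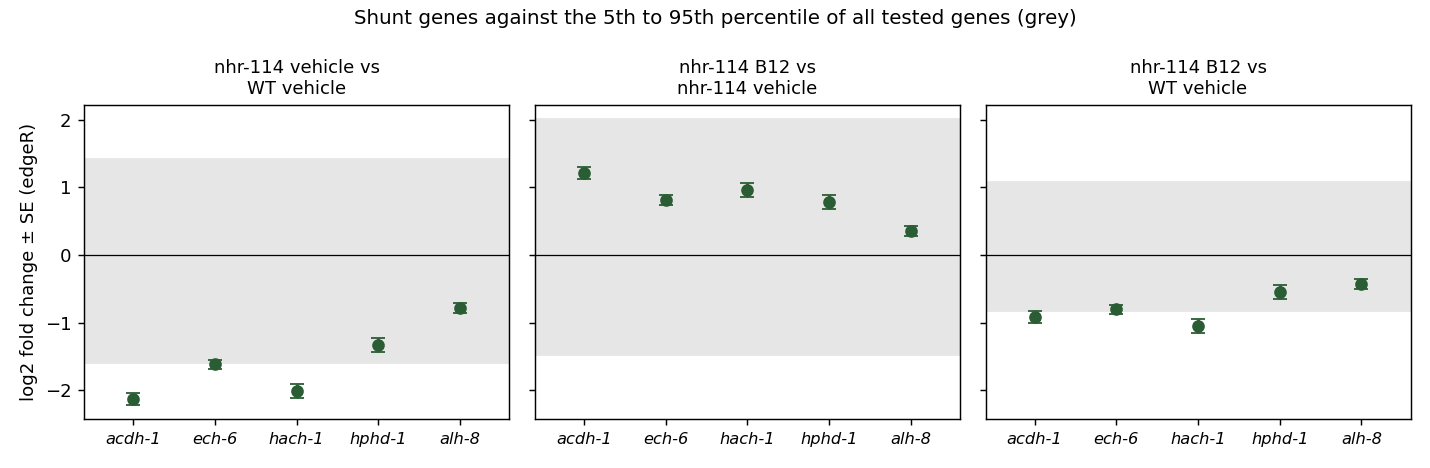
Log2 fold change with its SE (edgeR, vertical axis) of the 5 shunt genes in the 3 comparisons; the grey band runs from the 5th to the 95th percentile of the 14795 tested genes. In the left panel acdh-1 and hach-1 lie below -2 and alh-8 lies nearest to 0.

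Markers of other tissues moved between the same groups. The sperm marker list, of which 17 of 18 genes were matched, summed to between 283 and 355 CPM in B12 mutants, between 109 and 163 CPM in vehicle mutants, and between 237 and 305 CPM in WT animals. Of its 17 genes, 13 fell and 0 rose in vehicle mutants against WT, where 18.3% of all tested genes were called lower. In B12 mutants against vehicle mutants 15 rose and 0 fell, where 22.6% of all genes were called higher. In B12 mutants against WT 0 were called, where 7.28% of all genes were called higher and 6.13% lower. With each library's mean sperm marker level as a covariate, an alternative chosen after seeing the data, 3 of the 5 shunt genes were called lower in vehicle mutants than in WT, 0 were called between the mutant groups, and all 5 were called lower in B12 mutants than in WT. Between the mutant groups the 5 fold changes were larger in that fit, with *acdh-1* at 1.43 ± 0.32 (edgeR adjusted p = 0.234). The covariate nearly follows the groups, with a variance inflation of 15.4, and of all 14795 genes it called 136 in vehicle mutants against WT, 1 between the mutant groups and 952 in B12 mutants against WT. *hphd-1* and *alh-8*, which lost their call in vehicle mutants against WT, had fold changes of -1.57 and -0.99 there (adjusted p = 0.0503 and 0.076), beside -1.34 and -0.79 without the covariate.

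*acdh-1* is known to be expressed in the intestine and hypodermis. Of 15 intestine markers, 9 rose and 1 fell in vehicle mutants against WT, 3 rose and 9 fell in B12 mutants against vehicle mutants, and 1 rose and 3 fell in B12 mutants against WT, beside the shares of all genes given above. Their median log2 fold changes in these comparisons were 0.336, -0.49 and -0.076. Their summed level was between 8731 and 9698 CPM in B12 mutants, 10130 and 12000 CPM in vehicle mutants, and 9175 and 11410 CPM in WT animals. The WT range overlapped both mutant ranges, which did not overlap each other. The largest part of the sum was *asp-1*, at 3791 ± 344 CPM in B12 mutants, 4630 ± 505 CPM in vehicle mutants and 4572 ± 644 CPM in WT animals. Hypodermis markers, 14 of 15 matched, summed to between 5167 and 6740 CPM in B12 mutants, 2583 and 3368 CPM in vehicle mutants, and 5654 and 6521 CPM in WT animals. The largest part in each group was *dpy-13*, at 3642 ± 437 CPM in B12 mutants, 981 ± 276 CPM in vehicle mutants and 2200 ± 378 CPM in WT animals. The sum thus follows its most abundant genes rather than all 14 genes. Of these 14 genes, 4 rose and 6 fell in vehicle mutants against WT, with a median log2 fold change of -0.255. Likewise 4 rose and 6 fell in B12 mutants against vehicle mutants, with a median of -0.34. In B12 mutants against WT 1 hypodermis marker rose and 5 fell, with a median of -0.62, and 6.13% of all genes were called lower. The shunt medians in the same 3 comparisons were -1.62, 0.815 and -0.81. The part of intestinal and hypodermal tissue in the shunt result was not tested.

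The make-up of shunt mRNA shifted with its amount. The 5 genes together held between 0.539% and 0.568% of all counts in B12 mutants, between 0.2995% and 0.330% in vehicle mutants, and between 0.927% and 1.04% in WT animals. To compare genes with each other, levels were taken per length, as TPM (counts divided by length and scaled to the same sum in each library). TPM levels are read here between genes of a group, and the edgeR fits above give the differences between groups. Of limma's calls on log2(TPM + 1) in B12 mutants against WT, 16.9% were higher, beside 54.3% in the main fit. *acdh-1* was first in every group, at 1513 ± 82.5 TPM in B12 mutants, 729.5 ± 32.5 TPM in vehicle mutants and 3472 ± 373 TPM in WT animals (SD, n = 3 each). *ech-6* came second in B12 mutants (668 ± 4.26 TPM) and in WT animals (1413 ± 86.7 TPM). In vehicle mutants *alh-8* (439.7 ± 12.6 TPM) and *ech-6* (420.7 ± 5.29 TPM) were next to each other. Their libraries did not overlap, but the lowest *alh-8* library (425.8 TPM) was barely above the highest *ech-6* library (424.6 TPM). *hphd-1* and *alh-8* were neighbours in WT animals, at 819 ± 95.1 and 777 ± 24.3 TPM, and their libraries overlapped there, as they did in B12 mutants, at 461 ± 37.8 and 508 ± 27.5 TPM. *hach-1* was lowest in every group, at 187 ± 3.88 TPM in B12 mutants, 106 ± 5.61 TPM in vehicle mutants and 479 ± 80.5 TPM in WT animals.

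As a share of the summed TPM of the 5 genes, *acdh-1* made up 45.3% ± 0.737 in B12 mutants, 36.6% ± 0.226 in vehicle mutants and 49.8% ± 0.765 in WT animals. The share of *alh-8* ran the other way, with 15.2% ± 0.200 in B12 mutants, 22.1% ± 0.450 in vehicle mutants and 11.2% ± 0.735 in WT animals. Neither share overlapped between groups. The share of *ech-6* did overlap: it was between 19.3% and 20.8% in B12 mutants, 20.4% and 21.5% in vehicle mutants, and 19.5% and 20.9% in WT animals. *hphd-1* made up between 13.1% and 14.3% in B12 mutants and between 14.3% and 15.7% in vehicle mutants, both above the WT range of 11.3% to 12.1%. In CPM, the log2 ratio of *acdh-1* to *alh-8* within a library was 0.90 ± 0.03 in B12 mutants, 0.05 ± 0.05 in vehicle mutants and 1.39 ± 0.09 in WT animals, so the first and last enzymes of the route had near-equal counts only in vehicle mutants among the 3 groups. The CPM ratio of *ech-6* to *hphd-1* was -0.02 ± 0.11 in B12 mutants, -0.04 ± 0.12 in vehicle mutants and 0.24 ± 0.08 in WT animals. Such ratios are not per length, so they serve to compare groups and do not rank the genes. In mean TPM, *ech-6* stood above *hphd-1* and *acdh-1* above *alh-8* in every group. These shares and ratios are descriptions and were not tested.

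**Figure D3:**
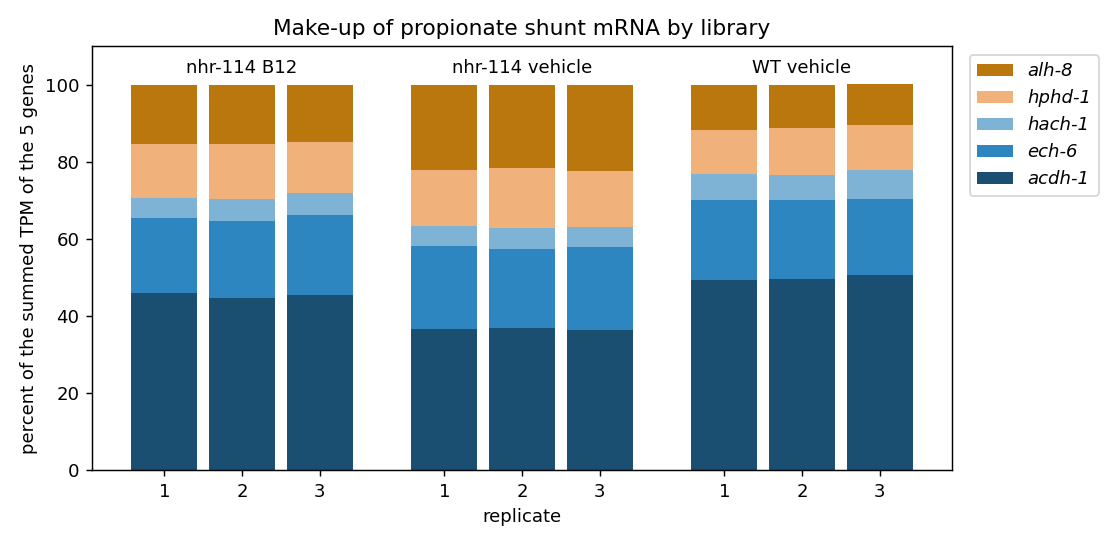
Stacked bars give each gene's percent of the summed TPM of the 5 shunt genes (vertical axis, from 0) in every library, with B12 mutants, vehicle mutants and WT animals from left to right. The acdh-1 segment is smallest in the vehicle mutants, at 36.4% to 36.9%, and the alh-8 segment is largest there, at 21.6% to 22.5%.

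At the level of annotated transcripts, 1 form carried most reads of 4 of the genes. The form C55B7.4a held 97.5% ± 0.251 of *acdh-1* counts in B12 mutants, 96.9% ± 0.178 in vehicle mutants and 97.5% ± 0.120 in WT animals. For *ech-6* the form T05G5.6.2 held at least 94.8% in each library, and for *alh-8* the form F13D12.4a.2 held at least 95.3%. For *hphd-1* the form Y38F1A.6.4 held 88.2% ± 1.89 in B12 mutants, 92.3% ± 2.19 in vehicle mutants and 81.3% ± 5.94 in WT animals. In *hach-1* the forms F09F7.4a.2 and F09F7.4b.3 were given the same counts in every library. Its form F09F7.4b.1 was at 0 in B12 mutants and vehicle mutants, and had 0, 1896 and 5056 estimated counts in the WT libraries, the last in the library with the highest *hach-1* level. Counts per form are model estimates, and no test was run on them.

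The B12-dependent route to succinyl-CoA was set beside the shunt. Of its 7 genes, 1 rose and 2 fell in vehicle mutants against WT, where 18.3% of tested genes were called higher and 18.3% lower. Lower in vehicle mutants were *mmaa-1* and *cblc-1*, whose products handle B12 and its delivery to the mutase. *mmaa-1* had 26.28, 29.05 and 32.43 CPM in B12 mutants, 23.13, 27.99 and 29.07 CPM in vehicle mutants, and 161.5, 169.7 and 197.2 CPM in WT animals. Its mutant groups overlapped, and its log2 fold change between them was 0.13 ± 0.12 (edgeR adjusted p = 0.416). *cblc-1* was lower still with B12, at 12.7 ± 0.428 CPM in B12 mutants and 20.2 ± 1.58 CPM in vehicle mutants, against 97.4 ± 1.72 CPM in WT animals (SD, n = 3 each). *pcca-1*, for a subunit of propionyl-CoA carboxylase, rose by 0.42 ± 0.07. The mutase gene *mmcm-1* had 128 ± 3.49 CPM in B12 mutants, 136 ± 4.92 CPM in vehicle mutants and 145 ± 1.40 CPM in WT animals and passed in no comparison. The list's median log2 fold change was -0.09 in vehicle mutants against WT and -0.07 between the mutant groups, beside 0.01 and -0.04 over all genes.

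Branched-chain amino acid breakdown supplies propionyl-CoA from valine and isoleucine. Of 11 matched genes, 0 rose and 5 fell in vehicle mutants against WT, 2 rose and 1 fell in B12 mutants against vehicle mutants, and 0 were called in B12 mutants against WT by edgeR. Over all genes 18.3% rose and 18.3% fell in vehicle mutants against WT, and 22.6% rose and 23.8% fell in B12 mutants against vehicle mutants. In B12 mutants against WT 7.28% of all genes were called higher and 6.13% lower, so 0 calls in a short list say little. These shares are the background for this list and for those that follow. The falls in vehicle mutants were between -0.49 (*kat-1*, an acetyl-CoA acyltransferase) and -0.29 (*mccc-1*, of leucine breakdown), and so smaller than that of *alh-8*. The list left out all the shunt genes, whether or not their enzymes also serve valine breakdown, as that of *alh-8* does. It therefore does not cover the whole pathway, and its range of falls holds for the listed genes only. *bcat-1*, the branched-chain aminotransferase, had 372 ± 33.5 CPM in B12 mutants, 327 ± 30.0 CPM in vehicle mutants and 444 ± 63.4 CPM in WT animals. *bckd-1B* and *dbt-1*, subunits of the branched-chain keto acid dehydrogenase, changed by -0.34 ± 0.08 and -0.39 ± 0.08 in vehicle mutants. *kat-1* and *bckd-1B* rose in B12 mutants against vehicle mutants, by 0.33 ± 0.08 and 0.47 ± 0.08. *dld-1*, the shared dihydrolipoamide dehydrogenase subunit, fell there by 0.27 ± 0.09.

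Beta-alanine meets the shunt at malonic semialdehyde. Of its 5 genes, 0 rose and 2 fell in vehicle mutants against WT, and the same 2 genes rose in B12 mutants against vehicle mutants, with 0 falling. They were *gta-1*, an aminotransferase that makes malonic semialdehyde, and *dhp-2*, a dihydropyrimidinase. *gta-1* had 585 ± 86.9 CPM in B12 mutants, 422 ± 37.2 CPM in vehicle mutants and 578 ± 50.3 CPM in WT animals. *dhp-2* changed by -0.79 ± 0.11 in vehicle mutants against WT and by 0.48 ± 0.11 between the mutant groups. In B12 mutants against WT 0 of the 5 were called by edgeR, beside 7.28% of all genes called higher and 6.13% lower. There *gta-1* was at 0.02 ± 0.12.

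**Figure D4:**
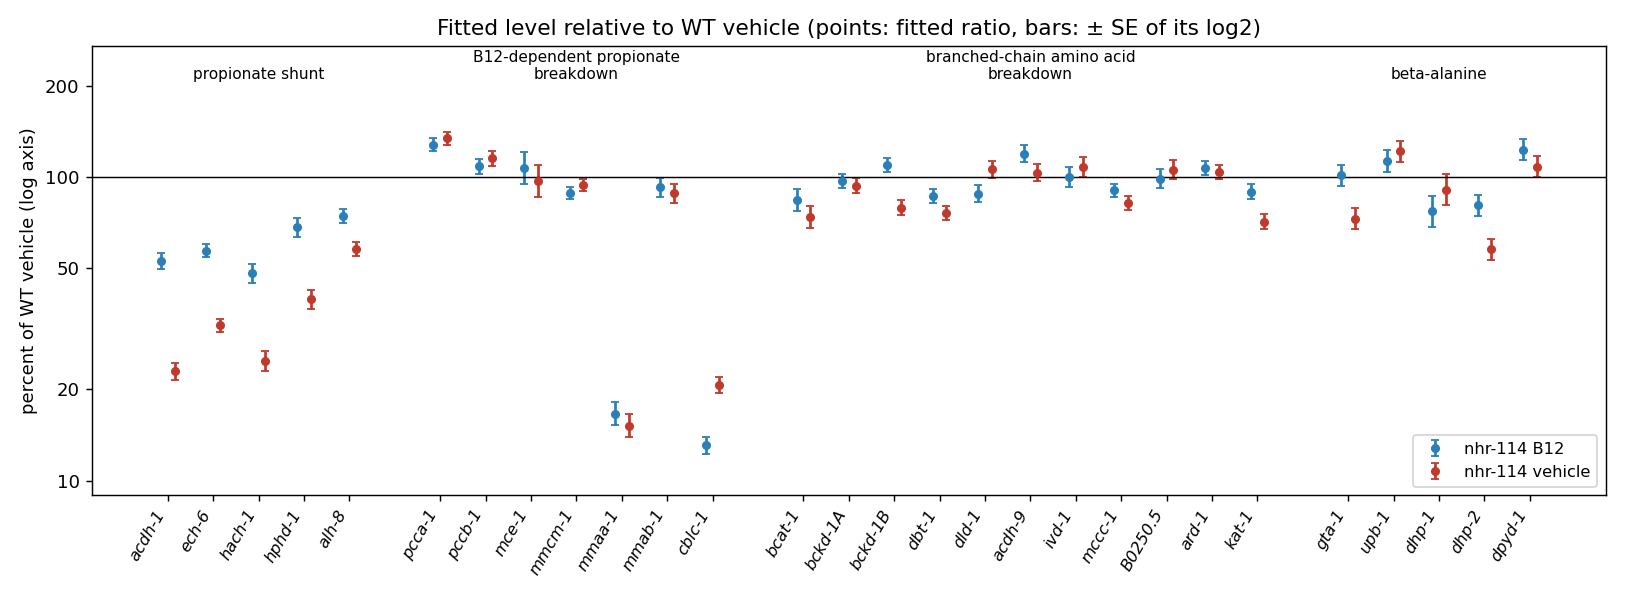
Fitted level as a percent of the WT vehicle level (log axis), with the SE of the fit as bars, for the shunt genes and 3 neighbouring pathways; blue is B12 mutants, red vehicle mutants, and the line at 100 is WT. The shunt genes lie between 22.9% and 74.3%, with B12 mutants above vehicle mutants for each gene, whereas mmaa-1 and cblc-1 are low in both mutant groups.

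*acdh-1*, *ech-6* and *alh-8* belong to gene families with other members, whose substrates were not examined here. Of 12 other *acdh* genes, 3 rose and 5 fell in vehicle mutants against WT, and 4 rose and 0 fell in B12 mutants against vehicle mutants. Without vehicle mutant replicate 3, 5 rather than 8 were called in vehicle mutants against WT. *acdh-12*, which had the highest CPM averaged over the 9 libraries, not per length, had 258 ± 4.96 CPM in B12 mutants, 256 ± 13.6 CPM in vehicle mutants and 208 ± 22.1 CPM in WT animals. *acdh-5* had the largest called change in both comparisons, -1.92 ± 0.29 and 2.33 ± 0.29, at 10.8 ± 1.03 CPM in B12 mutants, 2.16 ± 0.878 CPM in vehicle mutants and 8.19 ± 1.98 CPM in WT animals. *acdh-2*, picked out after its values were seen because it resembles *acdh-1* in sequence, was higher in vehicle mutants than in WT, where *acdh-1* was lower: it had 98.9 ± 13.7 CPM in B12 mutants, 149 ± 18.9 CPM in vehicle mutants and 60.6 ± 24.2 CPM in WT animals. It rose by 1.30 ± 0.27 in vehicle mutants against WT (edgeR adjusted p = 0.00595), its difference between the mutant groups of -0.59 ± 0.27 was not called (adjusted p = 0.105), and reads that the pair may share make both values less certain.

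Of 9 other *ech* genes, 3 rose and 1 fell in vehicle mutants against WT, and 2 rose and 4 fell in B12 mutants against vehicle mutants. Without vehicle mutant replicate 2, 2 rather than 4 were called in vehicle mutants against WT. *ech-1.2*, the highest of them in mean CPM over the 9 libraries, for the trifunctional enzyme subunit of fatty acid oxidation, rose by 0.43 ± 0.09 in vehicle mutants and fell by 0.28 ± 0.08 with B12. The largest called changes were in *ech-9* (-1.20 ± 0.39 in vehicle mutants against WT, edgeR adjusted p = 0.0348) and *ech-1.1* (1.74 ± 0.25 between the mutant groups). *ech-9* was low throughout, at 0.641 ± 0.214 CPM in B12 mutants, 2.04 ± 0.918 CPM in vehicle mutants and 4.68 ± 1.97 CPM in WT animals. Of 11 other *alh* genes tested, 2 rose and 1 fell in vehicle mutants against WT, and 2 rose and 1 fell in B12 mutants against vehicle mutants. Without WT replicate 1, 5 rather than 3 were called between the mutant groups. *alh-13* had the largest called change in both comparisons and the highest mean CPM over the 9 libraries, though not in vehicle mutants alone, at 769 ± 64.3 CPM in B12 mutants, 247 ± 11.4 CPM in vehicle mutants and 491 ± 154 CPM in WT animals. The median log2 fold change in vehicle mutants against WT was 0.01 for the other *acdh* genes, 0.11 for the *ech* genes and 0.21 for the *alh* genes.

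**Figure D5:**
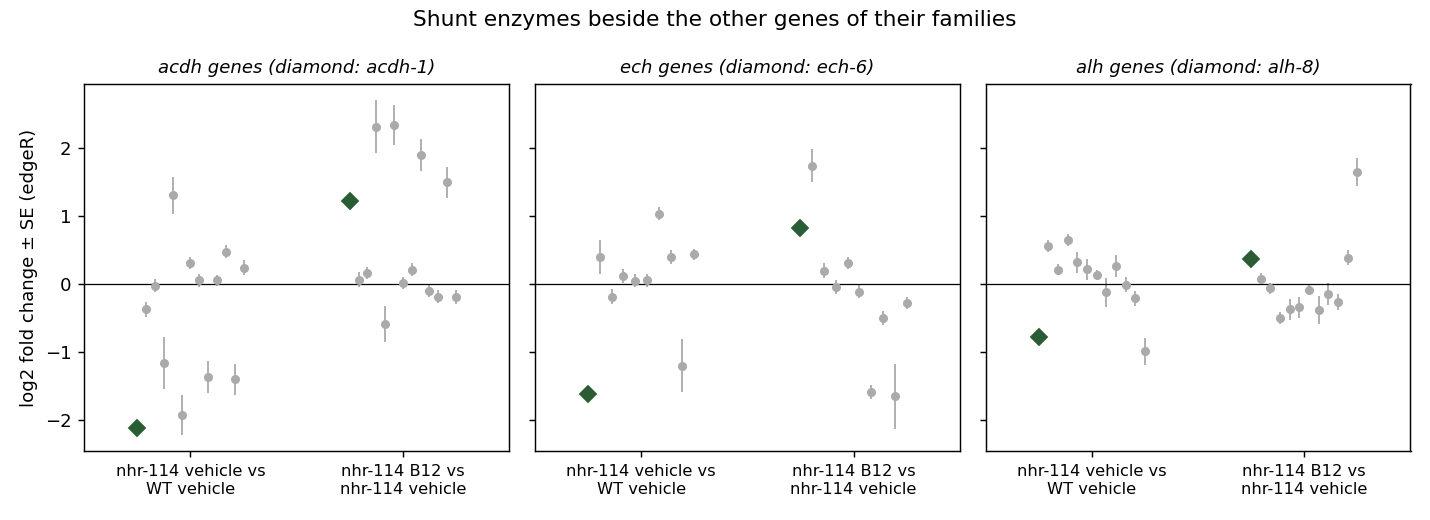
Log2 fold change with its SE (vertical axis) of acdh-1, ech-6 and alh-8 (green diamonds) and of the other tested acdh, ech and alh genes (grey dots), for vehicle mutants against WT (left in each panel) and B12 mutants against vehicle mutants (right). The diamonds lie at -2.13, -1.62 and -0.79 on the left, and grey dots scatter on both sides of 0.

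The receptors known to control the shunt moved in opposite directions. *nhr-68* had 89.2, 95.4 and 106 CPM in B12 mutants, 74.6, 83.6 and 66.2 CPM in vehicle mutants, and 141, 141 and 163 CPM in WT animals, with log2 fold changes of -0.99 ± 0.11 in vehicle mutants against WT and 0.37 ± 0.11 between the mutant groups. *nhr-10* had 26.6 ± 2.61 CPM in B12 mutants, 41.9 ± 6.55 CPM in vehicle mutants and 27.2 ± 1.23 CPM in WT animals (SD, n = 3 each). It rose by 0.62 ± 0.13 in vehicle mutants against WT and fell by 0.66 ± 0.13 in B12 mutants against vehicle mutants.

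The genes whose pattern was most like that of the shunt were sought among 6596 named genes with a mean of at least 5 CPM, the shunt genes themselves left out. Likeness was Pearson's r of log2 CPM over the 9 libraries, which mostly reflects the 3 group levels. *ugt-26*, a UDP-glucuronosyltransferase gene, was closest to the mean of the 5 genes (r = 0.998 over 9 libraries). Outside the shunt it was also the closest gene to each of *acdh-1*, *ech-6*, *hach-1* and *alh-8* singly, with r between 0.994 and 0.996. It had 38.7 ± 2.44 CPM in B12 mutants, 22.3 ± 1.45 CPM in vehicle mutants and 66.6 ± 4.56 CPM in WT animals. *aprt-1*, for adenine phosphoribosyltransferase, *dhgd-1*, for D-2-hydroxyglutarate dehydrogenase, *grl-14*, a hedgehog-related gene, and *clec-170*, a C-type lectin gene, came next, with r between 0.980 and 0.987. *dhgd-1* had 284 ± 4.62 CPM in B12 mutants, 175 ± 12.9 CPM in vehicle mutants and 376 ± 35.2 CPM in WT animals. Outside the shunt, the gene closest to *hphd-1* was *dlhd-1* (r = 0.989, against 0.993 for *acdh-1*), at 6.60 ± 1.10 CPM in B12 mutants, 1.52 ± 0.604 CPM in vehicle mutants and 15.7 ± 2.63 CPM in WT animals. Among the 5 shunt genes themselves r was between 0.983 and 0.995.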

How the data were processed

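Libraries were made from TRIzol-extracted RNA with an NEBNext Ultra kit and sequenced as paired ends, per the labels' protocols. Reads were quantified by kallisto 0.46.0 against WormBase WS245, per the labels. The authors deposited estimated counts per transcript (30939, fractional, not normalized) with transcript lengths, per the file headers, and a series table of CPM per gene. For the 5 genes, deposited CPM and CPM from summed estimated counts differed by at most 0.134%. The labels do not say whether strand was kept.

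Estimated counts were summed per gene (20444 genes, of which 20162 matched WBcel235) and rounded. Tests used edgeR 4.0.16 (filterByExpr, TMM, robust quasi-likelihood over all 9 libraries) with Benjamini-Hochberg adjustment over 14795 genes and calls at adjusted p under 0.05. An SE is the log2 fold change divided by the square root of F. The procedure was tested on simulated data. TPM was computed from estimated counts and effective lengths.

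The 5 genes and the gene lists were chosen with earlier results of these data known. Named beyond the lists were, per family, the other gene of highest mean CPM and those with the largest called change in either of the first comparisons, and the most alike genes. Matched were 7 of 7 B12-route, 11 of 12 branched-chain and 5 of 5 beta-alanine genes; *acdh-9* is on the branched-chain and *acdh* lists. In vehicle mutants against WT, edgeR called 0 of 9 body-wall muscle markers, 2 of 10 neuron markers higher and 2 of 10 germline markers lower. Of all tested genes 18.3% were higher and 18.3% lower there. In B12 mutants against vehicle mutants 1 muscle, 1 neuron and 3 germline markers were higher and 3 neuron markers lower. The shares of all genes there were 22.6% and 23.8%. In B12 mutants against WT 1 neuron marker was higher, with 0 muscle and 0 germline markers called, beside 7.28% higher and 6.13% lower over all genes. DESeq2 1.42.0 and limma 3.58.1 served as alternatives.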

Additional observations from a re-analysis of the deposited data

How the results depend on the processing

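All 15 fold changes of the shunt genes kept their direction and their call under the 19 alternatives planned (other scalings, filters, fits, tools, units and each library left out), with a largest adjusted p of 0.0314, for *alh-8* between the mutant groups by limma on log2(TPM + 1). With the sperm level added as a covariate after the data were seen, all kept their direction and 7 lost their call, each at a larger fold change and a larger SE: 3 of 5 genes were called in vehicle mutants against WT and 0 in B12 mutants against vehicle mutants. Over all genes that fit called 136, 1 and 952 genes in vehicle mutants against WT, B12 mutants against vehicle mutants, and B12 mutants against WT, in place of 5422, 6866 and 1984. It called 0 genes of the branched-chain, beta-alanine, *acdh*, *ech* and *alh* lists in the first and second of these comparisons, and 2 and 0 of the B12-route list. Its covariate nearly follows the groups. Of 342 planned counts of called list genes, 27 moved by more than 1.5 times. With limma on log2(TPM + 1), 4456 genes were called in B12 mutants against WT, 16.9% of them higher, and 35.8% of the calls between the mutant groups were higher; the main shares were 54.3% and 48.6%, and limma on log2(deposited CPM + 1) gave 42.4% in B12 mutants against WT. The cause was not tested. With a replicate block, the 3 comparisons called 5153, 6619 and 1736 genes and all 5 shunt genes in each. Same-numbered libraries were not paired: their deviations correlated between -0.22 and 0.37, above 0.1 in 2 of 9 pairs, and not every library correlated best with its own number.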
